A study of Arabidopsis thaliana with 9 samples.

Results

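Transcript levels were compared between suspension-cultured cells of Arabidopsis thaliana given high light (1800 microE/m2/s for 30 min) and control cells kept at the growth light of 50 microE/m2/s. The comparison rests on 6 of the series' 9 arrays, 3 high light and 3 control, and each high light array was paired with the control array of the same replicate number. All cells had grown under continuous light of 50 microE/m2/s, and no genotype or strain is named in the labels. The other 3 arrays, from cells kept 1 h in the dark, entered the main fit only to share its estimate of the spread and of the replicate effect. Genes were followed over all 22746 probe sets tested on the ATH1 array, an Affymetrix design with short probes near the 3 prime ends of transcripts. Of these sets 13513 had exactly 1 annotated gene, and after 1 set was kept per gene 13355 genes could be described by name. A gene is called measured here if it is among these 13355. Other genes may have probe sets on the array that the annotation used did not assign to 1 gene.

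Light beyond what photosynthesis can use leaves excited chlorophyll and reduced electron carriers in the chloroplast, where reactive oxygen such as singlet oxygen then forms. Plants are known to answer within minutes by inducing transcription factors, calcium sensors and ubiquitin ligases that are shared with wounding and immune responses. Transcripts of light-harvesting antenna proteins are known to decline over a longer time, and the circadian clock and abscisate, a stress hormone, also tune the response to light.

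The values are log2 signals computed by the authors with RMA, which subtracts background, gives all arrays one distribution and combines each set's probes into 1 value. The array medians lay between 5.55 and 5.67. High light replicate 1 stood apart from the other high light arrays. On the leading principal component (47.4% of the variance) it scored 4.32, while high light replicates 2 and 3 scored 41.5 and 45.4 and the control and dark arrays -28.5 to -0.85. Dark replicate 3, at -0.85, stood apart from the other dark arrays in a set of genes described at the end. RCA, rubisco activase and the single measured marker of photosynthetic cells, had signals of 11.10, 11.08 and 10.82 on control replicates 1 to 3 and 10.67, 11.01 and 10.82 in high light. The measured markers of root hairs (EXPA7) and guard cells (FMA) had control means of 4.28 and 4.22, near the lower quartile of 4.09 over all tested sets. No marker of xylem, seed or dividing cells had a probe set annotated to it alone, so their levels were not examined. As a measure of RNA quality, the log2 signal of 3 prime minus 5 prime control probes was 1.32, 1.64 and 1.78 on control replicates 1 to 3 and 1.68, 1.62 and 1.81 in high light. The labels call the replicates biological but do not say whether they came from separate cultures, so the p-values measure only the spread between these samples.

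Among the transcripts that passed the test, more were higher than lower in high light, and the rises were larger than the falls. With limma's moderated test across all probe sets, 302 sets (1.33% of those tested) differed at a Benjamini-Hochberg adjusted p under 0.05, of which 231 were higher (1.02%) and 71 lower (0.312%). Among the genes with a name, 118 rose (0.884%) and 34 fell (0.255%). The 118 rises had a median log2 change of 1.62, and 91 of them changed by at least 1, which is a doubling. The 34 falls had a median of -0.67, and 5 of them changed by at least 1. Over all 13355 named genes the balance was the other way, with 59.8% of log2 changes negative. At an unadjusted p under 0.05, 1073 genes were lower (8.03%) against 642 higher (4.81%). The median log2 change over all named genes was -0.03, with 0.0008 after median centring and -0.02 after quantile normalisation. The lean in the median was thus small. Median centring gives all arrays the same median and so moves this value towards 0 by design. The share of negative changes and the counts at an unadjusted p under 0.05 were not recomputed after either step. The rises started from a median control signal of 6.45 and the falls from 7.44, against 5.64 over all tested sets. No fall and 6 rises had a control mean below the lower quartile of 4.09. The 3 high light and 3 control arrays did not overlap for 113 of the 118 rises and 32 of the 34 falls, in genes that the same values had chosen, against 11.2% of all tested sets. Without high light replicate 1 the counts were 457 higher and 270 lower sets, which still held 112 of the 118 rises and 29 of the 34 falls. In a culture, fewer cells of a type and less RNA per cell cannot be told apart.

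**Figure D1:**
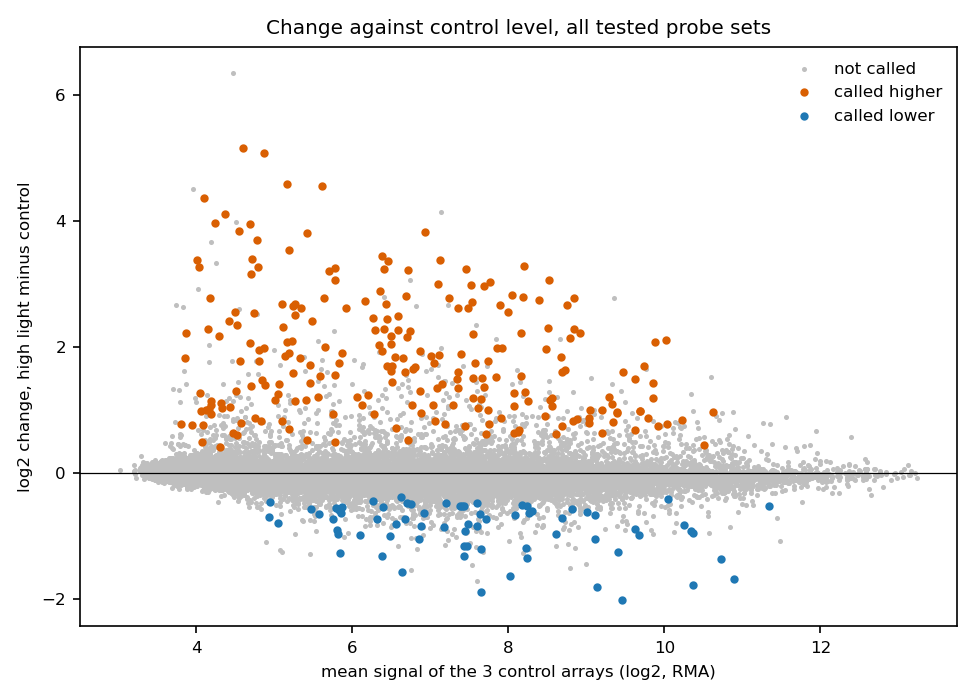
Each point is 1 of the 22746 tested probe sets, with the mean log2 signal of the 3 control arrays on the horizontal axis and the log2 change from control to high light on the vertical axis. Called sets are coloured, the 71 lower sets lie within about 2 log2 units of 0, and the highest grey point is AT4G10270, with a change of 6.34 that was not called.

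Called genes were sorted into 1 functional class each after their changes had been seen, so the direction within a class is a description. The falls included 4 genes of the photosynthetic apparatus. LHCB4.2, which encodes a minor antenna protein of photosystem II, had signals of 7.16, 7.44 and 7.80 on control replicates 1 to 3 and of 6.23, 6.42 and 6.23 in high light. The groups did not overlap, and LHCB4.2 fell by 1.17 on the log2 scale (SE 0.16, limma adjusted p = 0.0193), to 0.444 of the control level. PSAN, a lumenal subunit of photosystem I, had control signals of 8.49, 8.65 and 8.91 and high light signals of 7.97, 8.07 and 7.87. It fell by 0.71 (SE 0.12, adjusted p = 0.042). The gene AT1G12250, for a pentapeptide repeat protein of the thylakoid lumen, fell by 0.50 (SE 0.08, adjusted p = 0.0419).

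The plastid gene psbD, which encodes the D2 protein at the centre of photosystem II, shows what the pairing does. Its control signals were 8.48, 8.58 and 7.19 and its high light signals 7.73, 8.0 and 6.53, so the groups overlapped. Within each replicate number psbD was lower in high light, by 0.75, 0.58 and 0.66, and it fell by 0.66 in the paired fit (SE 0.11, adjusted p = 0.0374), while the fit without pairing gave an adjusted p of 0.814. It was the single called gene among 69 measured genes of the plastid genome, whose median log2 change was 0.01. At an unadjusted p under 0.05, 8 of the 69 were lower and 5 higher, beside 8.03% and 4.81% of all named genes. Among the lower ones, petD of the cytochrome b6f complex had a change of -0.77 (SE 0.14, adjusted p = 0.0611) and rbcL, the large subunit of rubisco, one of -0.86 (SE 0.22, adjusted p = 0.136). The 3 prime labelling kit primes on poly(A) tails, which most plastid transcripts lack, and the part of this in the plastid values was not tested.

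All 7 measured genes of the nuclear photosystem and antenna list, out of 43 listed, had a negative log2 change, as had 59.8% of all named genes. LHCB4.2 and PSAN, 2 of the 7, fell, where 0.255% of all named genes did. The list's median was -0.31, against -0.03 over all 13355 named genes. The lists were chosen with earlier results of these data known, so their counts are a description. PSBY of photosystem II had a change of -0.50 (SE 0.09, adjusted p = 0.0535) and missed the threshold. The close relatives LHCB4.1 and LHCB4.3 had changes of -0.31 (SE 0.09) and -0.27 (SE 0.18), with adjusted p-values of 0.215 and 0.593. In chlorophyll synthesis 0 of 6 measured genes passed, and 4 of the 6 were lower at an unadjusted p under 0.05, against 8.03% of all named genes. CHLM, a methyltransferase of that pathway, had a change of -0.60 (SE 0.12, adjusted p = 0.0812), and PORB, a light-dependent reductase, one of -0.49 (SE 0.10, adjusted p = 0.0772). LYC, a lycopene cyclase of carotenoid synthesis, had a change of -0.59 (SE 0.13, adjusted p = 0.0973).

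Another 3 falls were of regulators of the clock and of abscisate levels, while other hormone genes, the abscisate exporter AT5G52050 and OPCL1 of jasmonate synthesis, rose and are described with transport and lipids. GI, the clock and flowering regulator GIGANTEA, had signals of 7.60, 7.77 and 7.59 on control replicates 1 to 3 and of 6.51, 6.44 and 6.38 in high light. The arrays of each group lay close together, and GI fell by 1.20 (SE 0.14, adjusted p = 0.00775). Of 19 listed clock genes GI alone was measured, so the list cannot speak for the clock. TIC, the clock regulator TIME FOR COFFEE, had control signals of 10.13, 10.22 and 9.77 and high light signals of 9.69, 9.81 and 9.35. Those ranges overlapped, but the pair differences of TIC were nearly equal at -0.44, -0.42 and -0.42, and it fell by 0.43 (SE 0.07, adjusted p = 0.0285, and 0.526 without pairing). XERICO, a RING-H2 protein that raises abscisate levels, had control signals of 9.24, 9.01 and 9.10 and high light signals of 8.38, 8.03 and 7.78. XERICO fell by 1.05 (SE 0.14, adjusted p = 0.016).

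Falls also touched transcription and protein turnover. AT1G69570, a Dof transcription factor, had signals of 6.89, 6.73 and 7.03 in control and 6.25, 5.93 and 5.92 in high light and fell by 0.85 (SE 0.11, adjusted p = 0.016). The PHD finger gene AT2G01810 fell by 0.39 (SE 0.07, adjusted p = 0.0488). SLY1, the F-box subunit that sends DELLA repressors of gibberellin responses to degradation, fell by 0.52 (SE 0.09, adjusted p = 0.0459), from 8.50, 8.19 and 8.03 in control to 7.91, 7.62 and 7.61 in high light. AT5G37930, a SINA-type RING protein, and AT3G09030, a BTB/POZ protein, each fell by 0.53 (SE 0.09 and 0.08, adjusted p = 0.0359 and 0.0266).

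AT1G21050 had the largest called fall among named genes. Its signals were 10.10, 9.03 and 9.25 on the control arrays and 8.41, 6.99 and 6.93 on the high light arrays, a change of -2.02 (SE 0.22, adjusted p = 0.0064). Replicate 1 was high in both groups, and the fit without pairing gave an adjusted p of 0.109. AT1G21050 belongs to the family named after MIZU-KUSSEI, a root hydrotropism protein, and AT2G37880 of the same family rose by 2.26 (SE 0.33, adjusted p = 0.0234). The remaining falls of known domain were smaller. The WD40 repeat gene AT1G24530 fell by 0.85 (SE 0.13), the rhodanese-like AT4G27700 by 0.81 (SE 0.14), the oxygenase family gene AT1G52810 by 0.71 (SE 0.09) and the glycosyltransferase-like AT3G52060 by 0.68 (SE 0.11), with adjusted p-values from 0.0157 to 0.0419. The EF-hand gene AT3G10190 fell by 0.64, the thaumatin-like AT1G75800 by 0.60, the acetyltransferase AT1G26220 by 0.58 and the leucine-rich repeat gene AT5G23340 by 0.52.

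A further 12 falls had no function assigned here. AT4G17080 fell by 1.00 (SE 0.17), AT3G14280 by 0.99 (SE 0.17), AT1G27690 by 0.97 (SE 0.16), AT4G28240 by 0.93 (SE 0.14), AT3G11690 by 0.91 (SE 0.14) and AT3G15630 by 0.90 (SE 0.16). AT3G49790 had control signals that lay close together, at 6.64, 6.65 and 6.74, against 5.99, 6.01 and 5.82 in high light, and it fell by 0.74 (SE 0.09, adjusted p = 0.00969). On the dark arrays AT3G49790 had 5.97, 5.81 and 5.94, a range that overlapped high light. For 14 of the 34 falls all high light arrays were below all dark arrays, as for 5.2% of all named genes, in genes already chosen for low values on the same high light arrays.

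The falls rested on each array more than the rises did. Leaving out 1 array at a time, each of the 34 falls lost its call for at least 2 of the 6 left-out arrays. Without control replicates 1, 2 or 3 the calls that remained were 4, 5 and 2 of 34, and without high light replicates 1, 2 or 3 they were 29, 1 and 2. The highest adjusted p of a fall over these fits ranged from 0.0601 for AT3G49790 to 0.245. LHCB4.2 ranged over them from 0.0321 to 0.102, GI from 0.0105 to 0.0662, XERICO from 0.00616 to 0.125 and AT1G21050 from 0.00184 to 0.0638. AT2G01810, AT5G23340, AT5G64160, SLY1 and psbD lost their calls in all 6. Without pairing GI, LHCB4.2, XERICO and AT3G49790 stayed called, and with only the 6 arrays of both groups 14 of the 34 did.

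**Figure D2:**
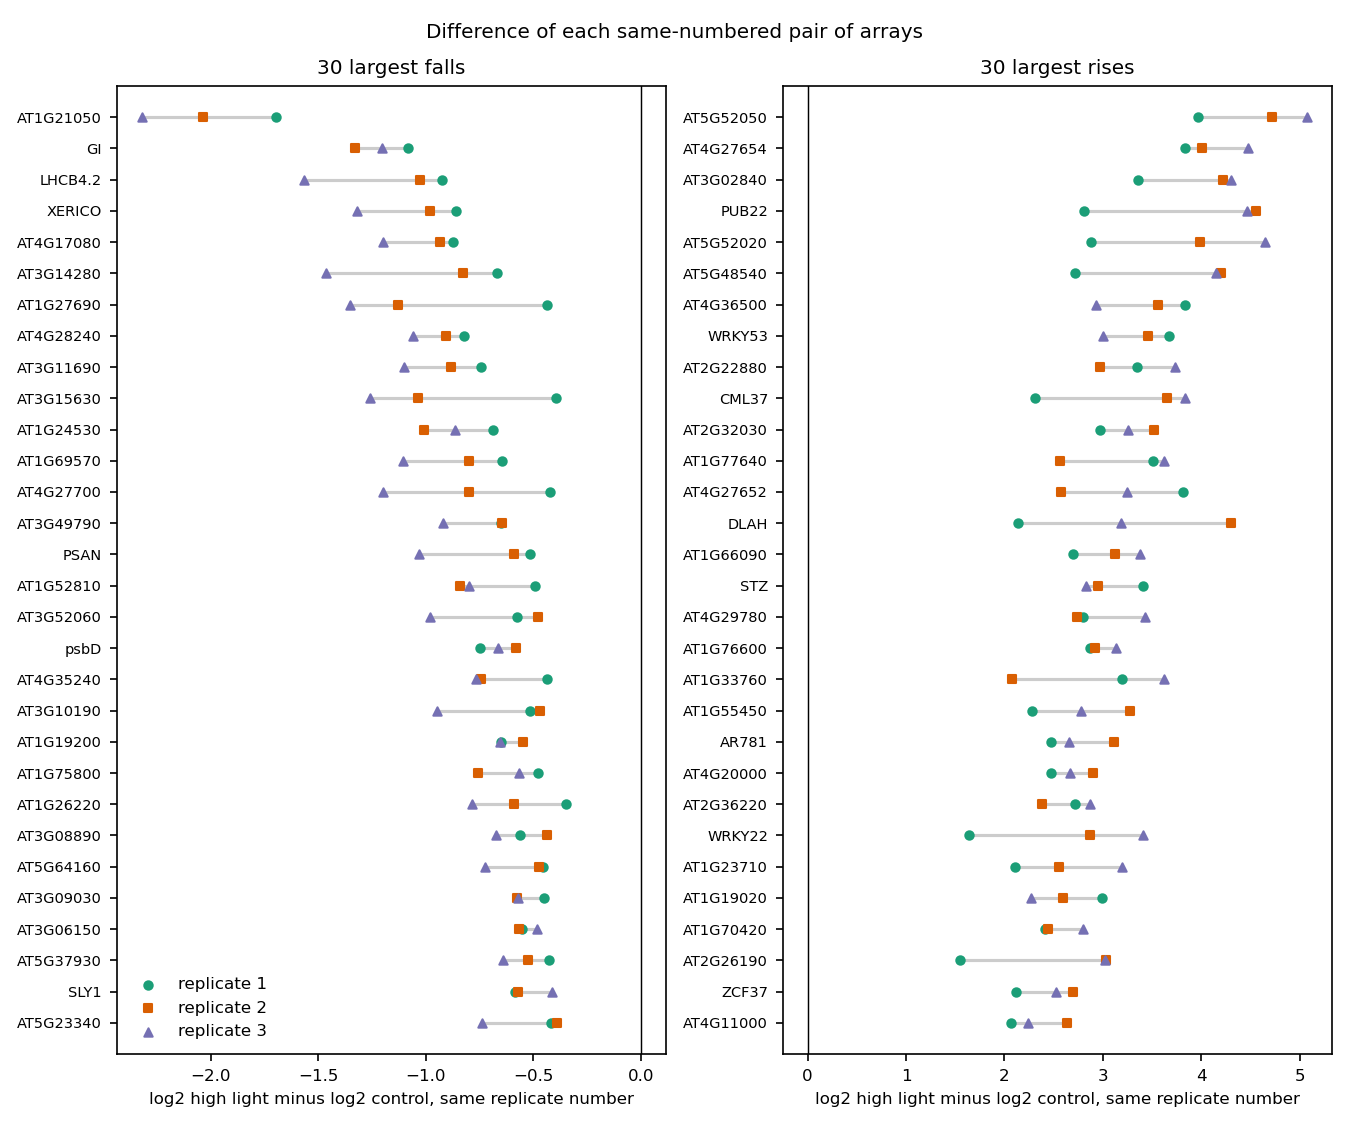
Points are the log2 differences between the high light and control arrays of replicate numbers 1, 2 and 3, for the 30 largest called falls (left) and the 30 largest called rises (right). All differences of a gene have the same sign, and the horizontal scales differ, since the falls start at 0.52 and the rises at 2.32.

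Of the 118 rises, 42 lost their call in at least 5 of the 6 fits that left out 1 array. Among the rises, 12 genes encode proteins of transcription, from 5 families. The AP2/ERF factors, many of which act in stress and wounding, gave 4 rises, without a count of measured members. AT5G52020 had signals of 4.59, 4.82 and 4.22 on control replicates 1 to 3 and of 7.47, 8.81 and 8.87 in high light, a rise of 3.84 (SE 0.33, adjusted p = 0.00216). AT1G77640 rose by 3.23 (SE 0.19), AT1G33760 by 2.96 (SE 0.30) and AT1G19210 by 1.26 (SE 0.18), with adjusted p-values from 0.000417 to 0.0195. AT1G19210 lost its call without control replicate 2 or 3 or high light replicate 2 or 3, at adjusted p-values up to 0.143.

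WRKY53, a regulator of senescence and defence, had control signals of 6.24, 7.33 and 7.82 and high light signals of 9.92, 10.79 and 10.81. It rose by 3.38 (SE 0.26, adjusted p = 0.00124), and its pair differences were 3.67, 3.46 and 3.00. WRKY22, which acts in immune signalling, rose by 2.64 (SE 0.38, adjusted p = 0.0219), but its replicate 1 difference of 1.64 was below those of 2.86 and 3.41. WRKY22 lost its call in 5 of the 6 fits that left out an array, all but the one without high light replicate 1, with adjusted p-values up to 0.154. The other 5 of the 7 measured genes with a WRKY symbol were not called, so 2 of 7 rose, where 0.884% of all named genes did. The count leaves out relatives named by locus, and the family was chosen with earlier results of these data known. STZ, a zinc finger repressor also known as ZAT10, reached the highest level of the group, from 7.81, 8.76 and 9.0 to 11.21, 11.71 and 11.83, a rise of 3.06 (SE 0.15, adjusted p = 0.000205). The VQ-motif proteins, partners of WRKY factors, gave 3 rises, AT2G22880 by 3.35 (SE 0.21), AT4G20000 by 2.68 (SE 0.29) and AT1G80450 by 1.86 (SE 0.27). Measured VQ members were not counted either. A C2H2 zinc finger gene, AT3G46070, rose by 1.46 (SE 0.19) and a trihelix factor gene, AT5G01380, by 1.07 (SE 0.14). The 3 measured genes of the list of rapid stress transcription factors, out of 27 listed, were WRKY53, WRKY22 and STZ. All 3 rose, against 0.884% of all named genes, but the list was chosen with earlier results of these data known. The count is therefore only a description.

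Ubiquitin ligase genes gave 7 rises, and the 3 falls of the same class are described above. PUB22, a U-box ligase that restrains immune signalling, had signals of 4.52, 4.82 and 4.71 in control and 7.33, 9.38 and 9.18 in high light. High light replicate 1 was the lowest of its group but above every control array, and PUB22 rose by 3.94 (SE 0.38, adjusted p = 0.00377). PUB23, its close relative, started much higher, at 7.84, 9.0 and 8.68, and rose by 2.30 (SE 0.19, adjusted p = 0.00212) with pair differences of 2.28, 2.27 and 2.35. PUB26 rose by 1.24 (SE 0.16, adjusted p = 0.0142), a call lost without control replicate 2 or 3 or high light replicate 2 or 3 (adjusted p up to 0.112). Another relative, PUB24, had a change of 2.09 (SE 0.45, adjusted p = 0.0886). In all, 3 of 9 measured genes with a PUB symbol rose and 0 fell, where 0.884% of all named genes rose and 0.255% fell. The family was also chosen with earlier results of these data known. Other rises in this class were the U-box genes AT5G37490 (2.17, SE 0.33) and AT3G49810 (0.77, SE 0.10) and the RING genes AT5G66070 (1.15, SE 0.16) and AT2G42350 (0.92, SE 0.14).

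Calcium proteins gave 5 rises and 1 fall, that of the EF-hand gene AT3G10190 described above. Of 8 measured genes with a calmodulin or calmodulin-like symbol 2 rose and 0 fell, where 0.884% and 0.255% of all named genes did. The family was chosen with earlier results of these data known. CML37, a calmodulin-like calcium sensor induced by touch and wounding, had control signals of 4.02, 4.21 and 3.85, near the bottom of the scale, and high light signals of 6.33, 7.86 and 7.69. The rise was 3.27 (SE 0.31, adjusted p = 0.00325). CML23, of the same family, rose by 1.65 (SE 0.17, adjusted p = 0.00497). AT4G27280, an EF-hand gene, was already high at 9.07, 10.41 and 10.17 and reached 11.52, 12.12 and 12.25, a rise of 2.08 (SE 0.20, adjusted p = 0.00396). The calmodulin-binding AT2G26190 rose by 2.53 (SE 0.33) and the EF-hand gene AT1G21550 by 0.82 (SE 0.12). CML38 had a change of 3.06 (SE 0.65, adjusted p = 0.0861) and was not called.

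Signalling kinases and phosphatases gave 11 called rises and 0 falls, in a class filled after the changes had been seen and without a count of measured members. These rises were mostly of modest size, with a median log2 change of 1.18. The 3 measured genes with a MAP kinase symbol were not called, and all 3 had negative changes, beside 59.8% of all named genes. The receptor-like cytoplasmic kinase AT5G35580 had signals of 7.31, 7.57 and 7.76 in control and 8.78, 9.19 and 9.18 in high light and rose by 1.51 (SE 0.11, adjusted p = 0.000994). The leucine-rich repeat receptor-like kinase AT5G25930 rose by 1.60 (SE 0.17) and the receptor-like kinase AT1G66880 by 1.54 (SE 0.21). The PP2C-type phosphatases AT3G62260 and AT4G28400 rose by 1.18 (SE 0.18) and 0.61 (SE 0.09). Immune genes gave 4 rises and 1 fall, that of the thaumatin-like AT1G75800 described above. Among them AT1G66090, for a TIR-domain disease resistance protein, rose by 3.06 (SE 0.24, adjusted p = 0.0015), from 4.95, 6.20 and 6.17 to 7.64, 9.32 and 9.55. The TIR-domain gene AT2G32140 rose by 2.28 (SE 0.38), the Hs1pro-1 homologue AT3G55840 by 2.02 (SE 0.27) and AT4G28460, precursor of a secreted immune peptide, by 0.92 (SE 0.08).

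**Figure D3:**
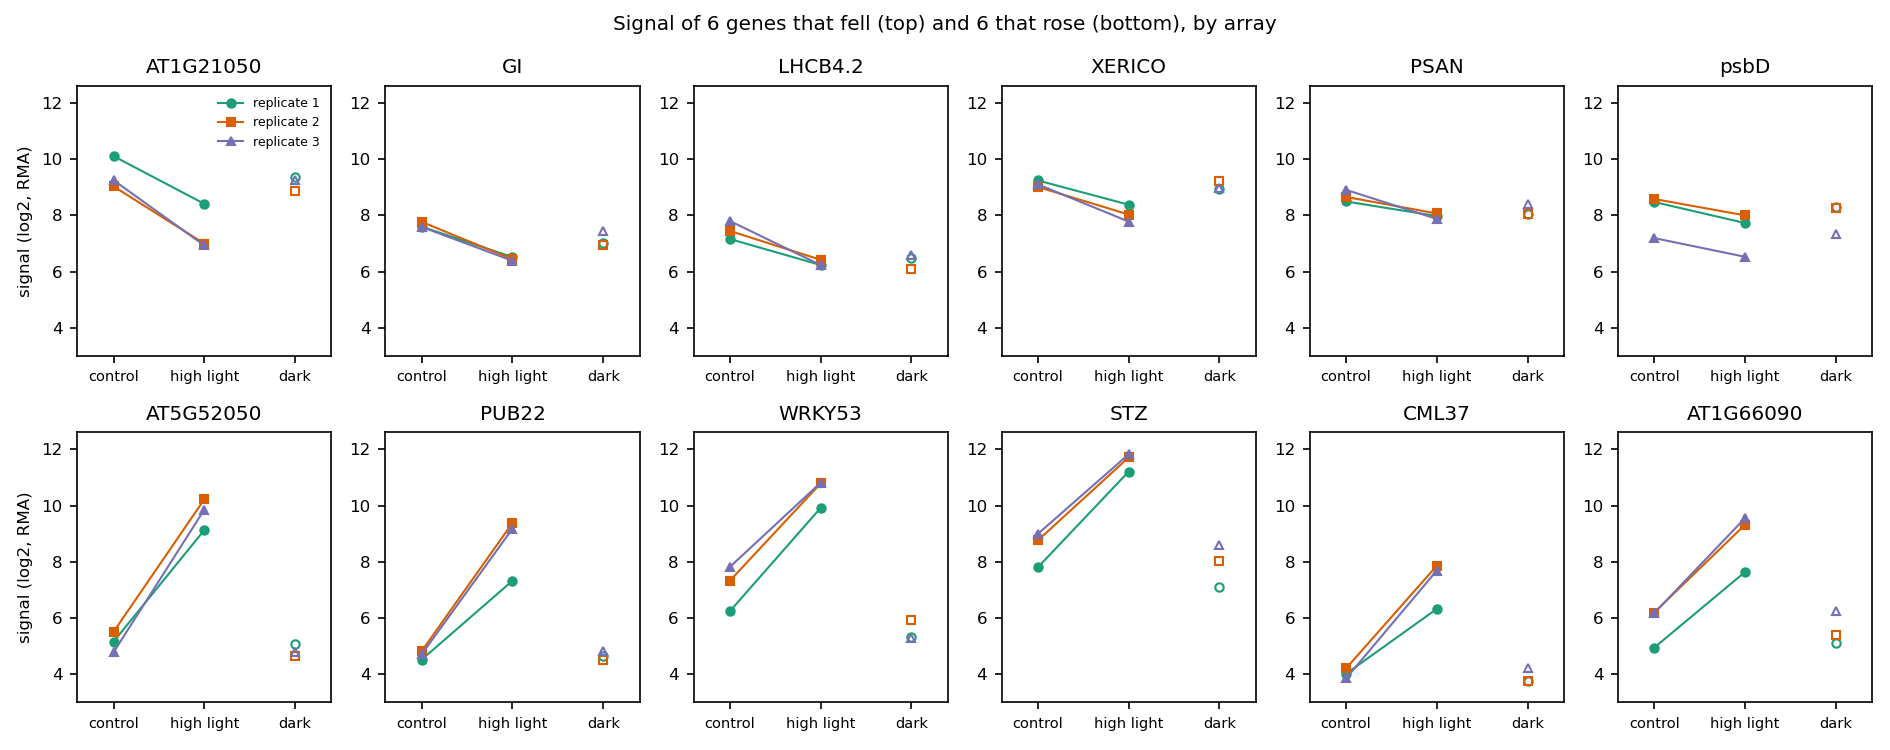
Log2 signals on every array are shown for 6 genes that fell (top row) and 6 that rose (bottom row), with lines joining control and high light arrays of the same replicate number and open symbols for the dark arrays. High light replicate 1 (green) rose least for PUB22 and CML37, and psbD fell in every pair although its groups overlap.

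The largest rise among the called named genes was that of a transporter. AT5G52050, a MATE-family transporter also called DTX50 that exports abscisate, had signals of 5.17, 5.51 and 4.79 in control and 9.13, 10.23 and 9.86 in high light. It rose by 4.58 (SE 0.27, adjusted p = 0.000417), a 24.0-fold increase. AT5G52050 and XERICO, which moved in opposite directions, were the called genes among the 3 measured of 20 listed abscisate genes. Over all named genes 0.884% rose and 0.255% fell. The abscisate list was also chosen with earlier results of these data known, so its count is a description. In lipid and jasmonate metabolism DLAH, an acylhydrolase that releases fatty acids, rose by 3.20 (SE 0.45, adjusted p = 0.0201), with pair differences of 2.13, 4.3 and 3.18. DLAH lost its call in 5 of the 6 fits that left out an array (adjusted p up to 0.148) and without pairing (0.0997). OPCL1, a CoA ligase of jasmonate synthesis, rose by 1.06 (SE 0.18) although its groups overlapped, the glycolipid transfer family gene AT4G39670 by 1.81 (SE 0.18) and the acyltransferase AT4G24160 by 0.82 (SE 0.13). In the same class the lipase family gene AT1G18460 fell by 0.47 (SE 0.08, adjusted p = 0.0449). Its call was also lost in 5 of the 6 fits that left out an array.

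Redox proteins gave 6 called rises and 0 falls, in a class filled after the changes had been seen and without a count of measured members. The oxygenase family gene AT1G52810, which fell, was placed outside it. GRX480, a glutaredoxin that binds TGA transcription factors, rose by 1.95 (SE 0.28, adjusted p = 0.0227), from 4.72, 4.74 and 4.93 to 5.78, 7.09 and 7.39. GRX480 lost its call in 5 of the 6 fits that left out an array (adjusted p up to 0.154) and without pairing (0.0667). It was the 1 called gene of 13 measured with a glutaredoxin or thioredoxin symbol, a count that leaves out relatives named by locus. Of these 13 genes 8 had a negative change, beside 59.8% of all named genes. The cytochrome b561 gene AT5G35735 rose by 1.09 (SE 0.11), the oxidases AT1G30700 and AT4G20830 by 0.99 (SE 0.16) and 0.77 (SE 0.09), the glutaredoxin family gene AT3G28850 by 0.80 (SE 0.09) and the class III peroxidase AT5G06730 by 0.73 (SE 0.13). None of 5 measured antioxidant enzyme genes, out of 18 listed, was called, where 0.884% of all named genes rose and 0.255% fell. None of the 5 had an unadjusted p under 0.05. SAPX and TAPX, the stromal and thylakoid ascorbate peroxidases, had changes of 0.08 (SE 0.13) and -0.00 (SE 0.09). The 4 measured heat shock genes of 18 listed were not called either, with changes from -0.69 to 0.02. At the shares over all named genes, 0 calls among so few genes say nothing particular about antioxidant or heat shock genes. Of 4 measured singlet oxygen markers, out of 10 listed, STZ alone was called higher, where 0.884% of all named genes were. The other 3 had positive changes from 0.49 to 1.61 with adjusted p-values from 0.111 to 0.213, beside 40.2% positive over all named genes. All 4 were higher at an unadjusted p under 0.05, against 4.81% of all named genes. This list too was chosen with earlier results of these data known.

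**Figure D4:**
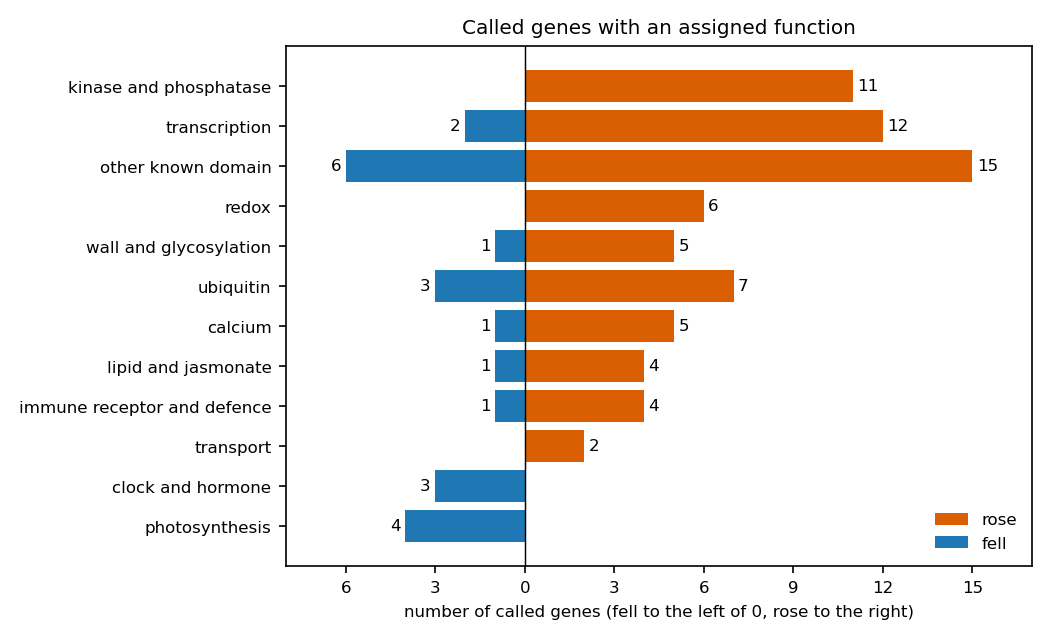
Bars count the called named genes of each assigned functional class, with rises to the right of 0 and falls to the left. Each gene was placed in 1 class after its change had been seen, and kinases and phosphatases hold 11 rises, transcription 12 rises and 2 falls, and photosynthesis 4 falls.

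Cell wall and glycosylation genes gave 5 rises and 1 fall, that of the glycosyltransferase-like AT3G52060 described above. The rises were led by AT2G41640 of glycosyltransferase family 61 (1.84, SE 0.25) and the O-fucosyltransferase family gene AT3G05320 (1.44, SE 0.20). Of the 15 rises with another known domain, AT3G02840, an armadillo repeat gene, had the most even control arrays, at 4.23, 4.28 and 4.2, against 7.59, 8.49 and 8.49 in high light, a rise of 3.96 (SE 0.18, adjusted p = 0.000139). AT5G48540, for a secreted cysteine-rich repeat protein, rose by 3.69 (SE 0.31) and the acetyltransferase gene AT2G32030 by 3.25 (SE 0.23). A total of 47 rises had no function assigned here. AT1G58420 had nearly equal pair differences of 2.26, 2.30 and 2.26 and rose by 2.27 (SE 0.11, adjusted p = 0.000157). AT1G70420 and AT1G23710 rose by 2.55 (SE 0.11) and 2.62 (SE 0.30). AT4G36500 rose by 3.44 (SE 0.32), and AT1G67920 by 2.04 (SE 0.10).

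Several rises lay side by side on the chromosome. AT4G27652, AT4G27654 and AT4G27657, next to each other in the gene table, rose by 3.21 (SE 0.26), 4.11 (SE 0.17) and 2.21 (SE 0.18). Their control arrays were low and alike for AT4G27654 (4.17, 4.6 and 4.31) and higher for AT4G27652 (6.24, 7.34 and 6.55). The neighbours AT5G52750 and AT5G52760, both for heavy metal-associated domain proteins, rose by 1.74 (SE 0.10) and 1.15 (SE 0.13), and AT1G19020 and AT1G19025 by 2.62 (SE 0.17) and 1.13 (SE 0.20). Over the rises with a measured adjacent gene, 7 of 72 had an adjacent gene that also rose, against 1.13% of all 8318 measured genes with a measured neighbour. No fall had an adjacent fall among the 14 with a measured neighbour, beside 0.216% of the same 8318 genes. So few falls cannot show whether falls differ from rises in this. Each of these genes had a probe set of its own with no shared-probe suffix. A pair of neighbours went opposite ways, as AT1G19200 fell by 0.62 (SE 0.07, adjusted p = 0.00753) beside AT1G19210, the AP2/ERF gene that rose.

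Rises and falls shared a pattern across the pairs. The median difference of the 118 rises was 1.29 in pair 1, 1.59 in pair 2 and 1.93 in pair 3, and 70 of the 118 were smallest in pair 1. The median difference of the 34 falls was -0.53, -0.62 and -0.83, and 24 of the 34 were smallest in size in pair 1. WRKY53, STZ and AT4G36500 went against this, with their largest difference in pair 1. Of the 118 rises, 40 kept their call in all 6 fits that left out 1 array, including AT5G52050, PUB22, PUB23, WRKY53, STZ and CML37, and AT3G61980, AT1G10650 and AT3G23160 lost it in all 6. Without pairing 51 of the 118 stayed called, and with the 6 arrays of both groups 101 did. For 114 of the 118 all high light arrays also lay above all dark arrays, as for 4.89% of all named genes, in genes already chosen for high values on those arrays.

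The largest log2 changes over named genes included transcripts that were not called. A list of 45 loci known to rise in Arabidopsis when oxygen is low was drawn up from general knowledge after these values had been seen, so its counts are a description. Of its 24 measured genes, 23 had a positive log2 change (22 of 24 after quantile normalisation), with a median of 1.62, and 0 were called with all 9 arrays. With the 6 control and high light arrays alone 13 of the 24 were higher at an adjusted p under 0.05 (0.000568 to 0.0149), where 1.09% of all named genes were, and with all 9 arrays those 13 had adjusted p-values from 0.0711 to 0.27. AT4G10270, a wound-responsive family gene, had signals of 3.78, 5.62 and 4.0 on control replicates 1 to 3 and of 10.73, 10.70 and 11.01 in high light, a change of 6.34 (SE 1.49, adjusted p = 0.111 with 9 arrays and 0.00242 with 6). Its dark arrays gave 7.64, 4.15 and 11.83. AT4G33560, of the same family, had a change of 4.50 (SE 1.07), with 5.34, 3.57 and 9.47 in the dark, and AT1G33055 one of 3.67 (SE 1.11), with 4.67, 3.84 and 9.94 in the dark. AT3G10040, a trihelix factor gene known as HRA1 that dampens the low oxygen response, changed from 4.26, 4.28 and 4.19 to 8.49, 6.98 and 7.26, and CML38, also on this list, from 5.99, 7.39 and 6.83 to 9.03, 10.17 and 10.18.

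Over the 24 measured genes, dark replicate 3 was above every control array for 23, dark replicate 1 for 9 and dark replicate 2 for 0, and the fit with 9 arrays takes this spread among the dark arrays into its error. The same shares over all named genes were not counted, so these counts only describe the listed genes. Without dark replicate 3, 11 of the 24 were called. Over all named genes, 44 were called higher with the 6 arrays and not with the 9. PDC2, a pyruvate decarboxylase of fermentation on the same list, had a change of 0.78 (SE 0.42, adjusted p = 0.486 with 9 arrays and 0.319 with 6). What the high light arrays and dark replicate 3 had in common was not tested.

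**Figure D5:**
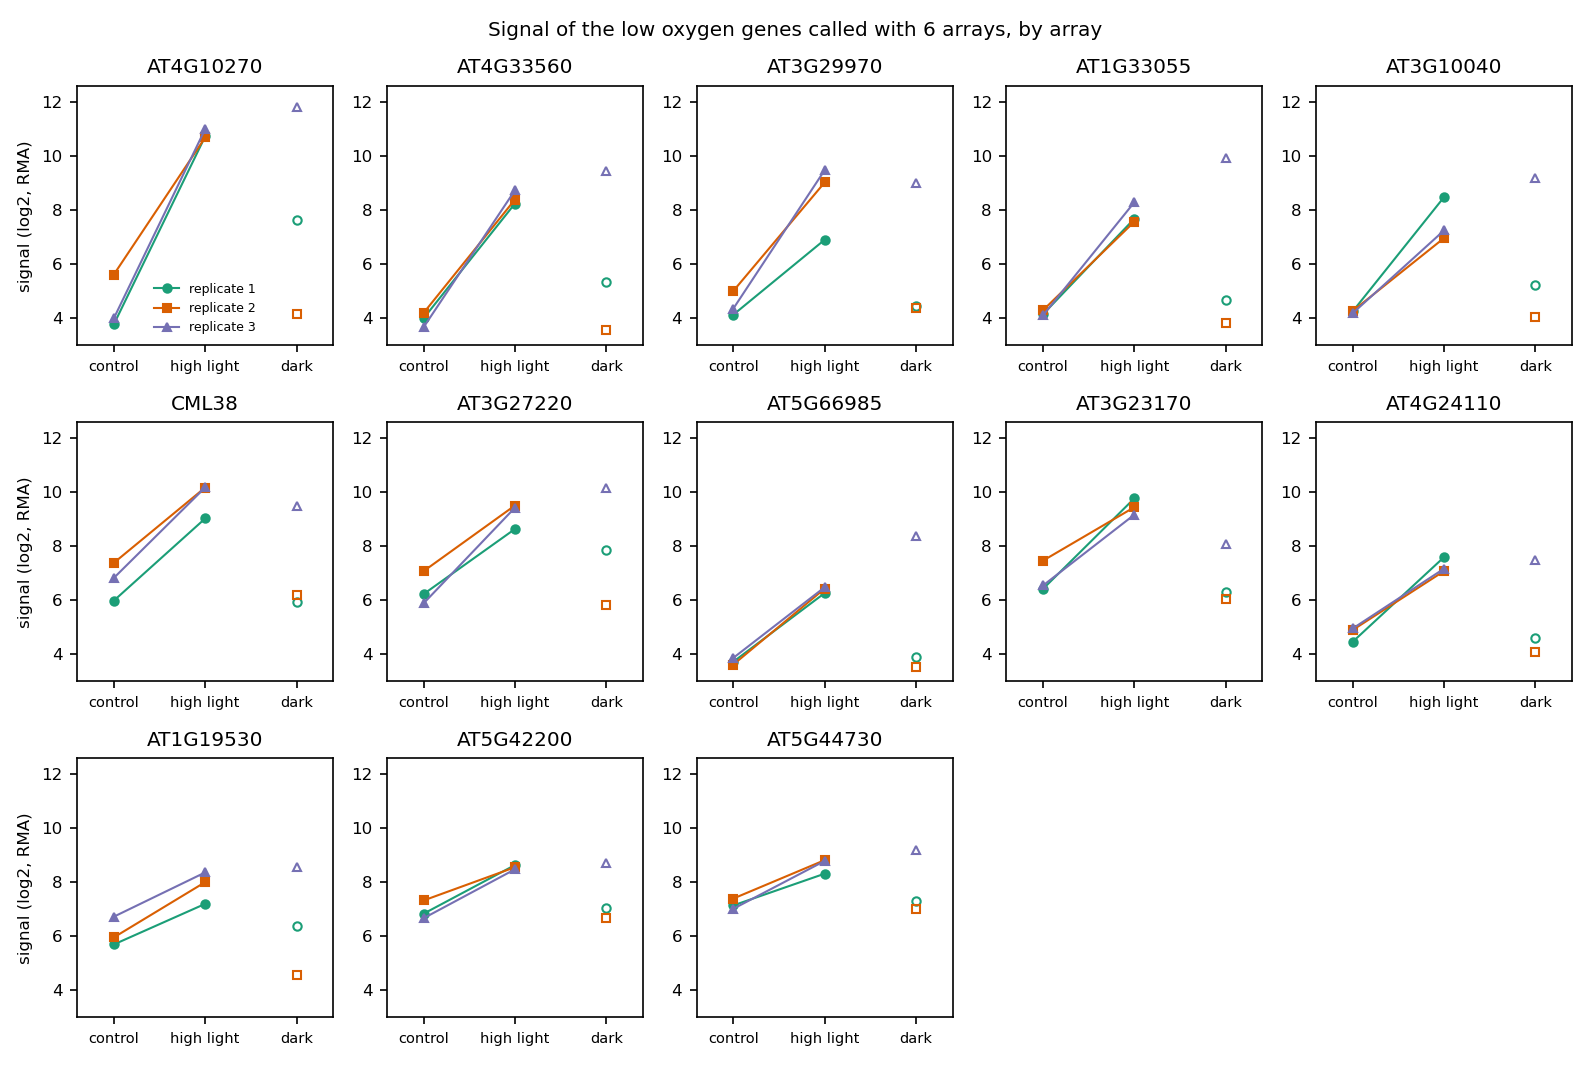
Log2 signals on every array are shown for the 13 genes of the low oxygen list called with the 6 control and high light arrays, with lines joining arrays of the same replicate number and open symbols for the dark arrays. The genes were chosen for being higher on these high light arrays, and in every panel dark replicate 3 (open purple triangle) lies above the other dark arrays.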

How the data were processed

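The deposited values are log2 expression per probe set. The submitters' processing notes name affy and RMA, without a version. The log base was taken from the range of the values. The 64 Affymetrix control sets were left out of the tests. RMA hides a change that moves most transcripts one way, and no probe set was tested against background. The main fit used limma 3.58.1 in R 4.3.3 (lmFit, a mean per group and the replicate number as a block over 9 arrays, eBayes, Benjamini-Hochberg over 22746 sets), and was checked on simulated data. Deviations of same-numbered high light and control arrays from their group means correlated at 0.515, 0.261 and 0.384, all above 0.1, so the numbers were taken as pairing these arrays. The block also covers the dark arrays, for which replicate 2 did not pass this check (0.0124 with control, -0.0336 with high light), and replicates 1 and 3 gave 0.414 to 0.632. Platform annotation gave 1 gene for 13513 sets, several for 503 and none for 8730. Of the 13513, 13436 were matched by gene identifier to the RefSeq gene table (assembly TAIR10.1), and the set with the highest mean stood for each gene. The 22 lists (61 of 375 loci measured), 23 families, functional classes and members were chosen with earlier results of these data known, some family patterns were corrected after fold changes were seen, and classes come from general knowledge. Genes were named by rule: up to 30 called falls and as many rises by size, with 1 sign in all 3 pairs, plus up to 4 called members per group and up to 2 of a group without calls. AT4G10270, CML38 and the other genes of the low oxygen list, the neighbouring genes, the smaller rises and falls of each class and the further members of the photosystem, PUB and WRKY groups were named after their values were seen. Promoter sequences were not used here.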

Additional observations from a re-analysis of the deposited data

How the results depend on the processing

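The replicate numbers pair the arrays, and the fit with no replicate block called 114 probe sets (100 higher, 14 lower), 27 of the 60 genes named by size and 3 lower calls among the gene groups, where the paired fit made 5. With the 6 control and high light arrays alone 41 sets were lower, and with array weights 121 were. At an adjusted p under 0.01 there were 111 (102 higher, 9 lower) and 30 of the 60 named genes. Leaving out 1 array, or a whole replicate number, gave 79 to 727 called sets, 74 to 457 higher, 3 to 270 lower and 18 to 56 of the 60 named genes. Without high light replicate 1 the lower calls among the gene groups were 11. The counts stayed within 1.5 times after quantile normalisation, after median centring, with either filter on the mean signal, without shared-probe sets and with a robust trend in eBayes. No alternative reversed any of the 77 single genes followed, of which the filter at the median kept 64. Leaving out dark replicate 3, chosen after seeing the data, gave 317 sets. The planned search of promoters for motifs was not run. The number of arrays limits the precision, and list counts speak only for measured members.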

Other observations

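Of the groups with a measured member, 25 of 37 had 0 genes called by limma. At an unadjusted p below 0.05, 8 of their 215 genes were higher and 20 lower, where 4.81% and 8.03% of all named genes were. The lists for photoprotection, jasmonate and the cell cycle had 0 measured members, in the sense of a probe set annotated to 1 gene. Among the falls seen with the 6 arrays and not with the 9, CHLM had an adjusted p of 0.0467, and AT2G07722 had a log2 change of -0.79 (SE 0.19, adjusted p = 0.11 with 9 arrays). The called sets without a single named gene, 113 higher and 37 lower, were not described by function.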
